A study of Mus musculus with 8 samples.

Results

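The 51 genes described here encode cytosolic ribosomal proteins and were measured in sorted mouse bone marrow cells that lacked, or carried, the corepressor KAP1. They were chosen by name: a probe was taken if the array annotation gave it a single symbol of the form Rpl or Rps with a number, Rplp0, Rplp1, Rplp2 or Rpsa, and if its intensity lay above the floor of the deposited table, 20, on at least 4 of the 8 arrays. Of 88 probes for 59 such genes, 69 probes for 51 genes met the second condition, 30 of them large-subunit and 21 small-subunit genes, among 7178 tested genes in all. No difference between the groups entered this rule.

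The arrays were Illumina bead arrays, which report the fluorescence of probes carried on beads, made from 100 ng of amplified RNA each. Cells were sorted by flow cytometry for the transferrin receptor CD71 and the red cell surface antigen Ter119, a pair that marks erythroblasts, from mice 8 to 12 weeks old of mixed strain background. The 4 knockout (KO) samples, A4, A8, A11 and A13, carry the genotype label KAP1 KO, and the 4 wild-type (WT) samples are C4, C6, C8 and C9. All 8 samples, WT included, carry the allele description Kap-flox/stopfloxYFP, and the Cre line that drove deletion is not given in the sources used here, nor whether each sample came from a separate mouse, so that the p-values speak only of how these samples vary, part of which may be technical. The Trim28 probe, which reads the transcript of the KAP1 gene, gave intensities of 207, 171, 141 and 131 in the KO samples and 740, 395, 641 and 406 in the WT samples. No KO value reached the lowest WT value. The log2 fold change, KO over WT, was -1.71 with an adjusted p of 0.0085 in limma. The sources used here do not say whether this probe falls in the excised exons.

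Ribosomal proteins assemble with ribosomal RNA into a small subunit, which binds and decodes mRNA, and a large subunit, which joins amino acids and releases the chain through an exit tunnel. Their genes are among the most strongly transcribed in any growing cell, and their mRNAs begin with a terminal oligopyrimidine (TOP) tract, through which the mTOR pathway regulates their translation. Erythroblasts make very large amounts of globin, and in humans the loss of 1 copy of any of several ribosomal protein genes causes Diamond-Blackfan anaemia, in which red cell precursors fail.

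Most of these genes gave somewhat higher signal in the KO samples, while few passed the test one by one. The median log2 fold change was 0.41 over the 51 genes, which is 1.33-fold, and 45 of them lay above 0 against 6 below. Over all 7178 tested genes the median was 0.11, and 58.3% lay above 0. The quartiles of the ribosomal protein genes were 0.21 and 0.57 on the log2 scale, and those of all genes -0.27 and 0.42.

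Differences were tested with limma on log2 intensity over 12259 probes, with Benjamini-Hochberg adjustment and a threshold of 0.05, and each gene is represented by its tested probe of highest mean. By that test 4 of the 51 genes rose in the KO samples, Rps2, Rplp1, Rpl10a and Rpl38, and none fell. Over all genes 2.4% were called higher and 3.25% lower. At an unadjusted limma p under 0.05, 26 members were higher against 15.3% of all genes, and 0 were lower against 9.92% of all genes. Counted by probe, 7 of 69 rose and none fell, where 2.46% of all tested probes were called higher and 3.11% lower.

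The groups can also be compared without a model, by asking whether every KO sample lay above every WT sample. This held for 26 of the 51 genes, or 51.0%, and for 11.3% of all tested genes. The 26 include Rpl21, which entered the test through the KO samples and had only 1 WT value above the floor. They also include Rpl4, whose lowest KO value, 352.0, barely exceeded its highest WT value, 351.7. The reverse, every KO sample below every WT sample, held for none of the 51 and for 7.38% of all tested genes. By probe, 34 of 69 members, or 49.3%, had every KO sample above every WT sample, against 10.5% of all tested probes.

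**Figure D1:**
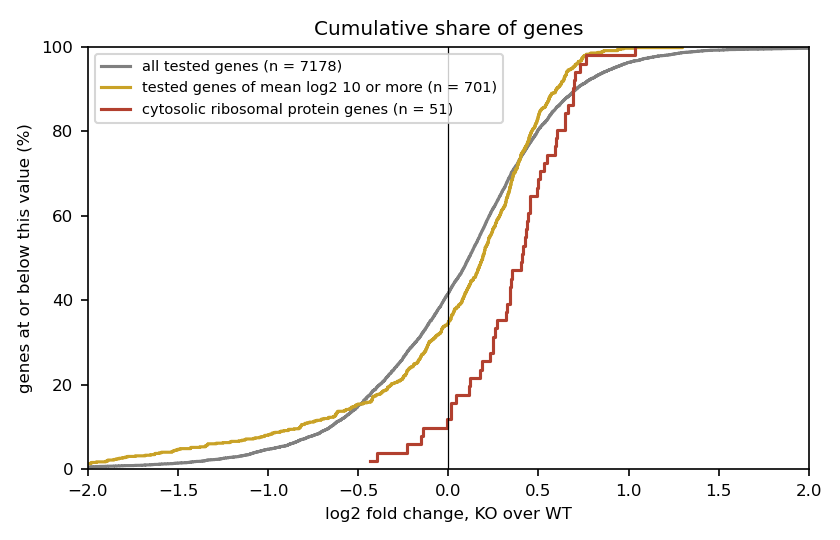
The x axis is the log2 fold change, KO over WT, drawn from -2 to 2, and the y axis the cumulative percent of genes at or below it, for all 7178 tested genes, for the 701 of them with a mean log2 intensity of 10 or more, and for the 51 ribosomal protein genes. The ribosomal protein curve lies to the right of both others over most of its length, with a median of 0.41 against 0.11 and 0.19.

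Ribosomal protein probes are mostly bright, so the same summary was made for the bright probes alone, at a limit chosen after the data had been seen. Among 701 genes with a mean log2 intensity of 10 or more, an intensity of 1024, the median log2 fold change was 0.19, 65.3% lay above 0, and every KO sample exceeded every WT sample in 24.3%. Among the 42 ribosomal protein genes in that range the median was 0.41, 40 lay above 0, and every KO sample exceeded every WT sample in 54.8%. The 701 genes include these 42, and brightness within that range was not matched. The 9 dimmer members had a median of 0.19, with 5 above 0 and none past the test.

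**Figure D2:**
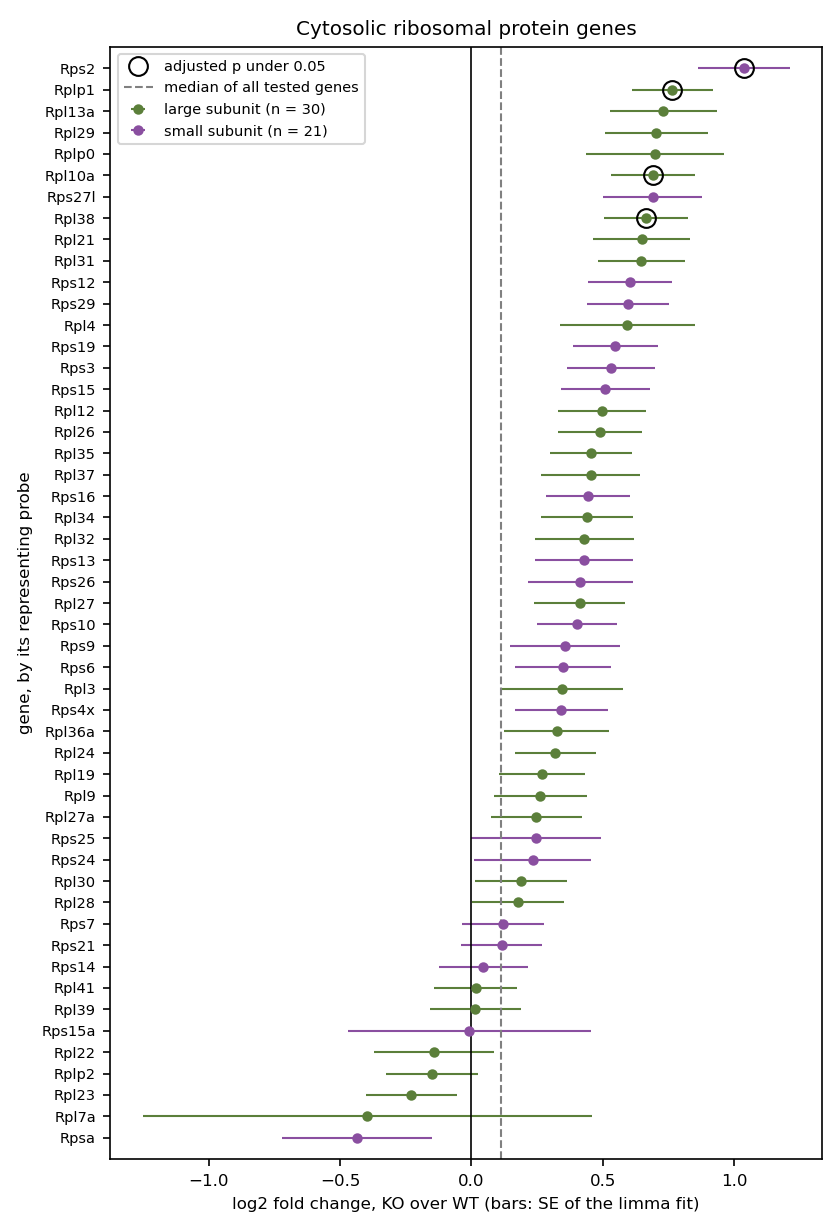
The x axis is the log2 fold change, KO over WT, of each of the 51 genes by its representing probe, and bars are the SE of the limma fit, with large-subunit genes in green and small-subunit genes in purple. Rings mark the 4 genes past the adjusted p of 0.05, the dashed line is the median of all tested genes at 0.11, and genes of both subunits are interleaved from Rps2 at the top, 1.04, to Rpsa at the bottom, -0.44.

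Large-subunit and small-subunit genes had similar fold changes. The 30 large-subunit genes had a median log2 fold change of 0.42, 26 of them lay above 0 and 3 rose. The 21 small-subunit genes had a median of 0.40, 19 of them lay above 0 and 1 rose. The difference between these medians was 0.018 on the log2 scale and took either sign when single samples were left out, from -0.052 without A11 to 0.056 without C6.

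The mean log2 intensity of the 30 large-subunit genes was 11.88, 11.88, 11.99 and 11.98 in the KO samples, given throughout in the order A4, A8, A11, A13, and 11.54, 11.72, 11.49 and 11.57 in the WT samples, in the order C4, C6, C8, C9. For the 21 small-subunit genes it was 12.39, 12.42, 12.45 and 12.41 in the KO samples and 12.10, 12.17, 12.01 and 11.95 in the WT samples. In both subunits all 4 KO means lay above all 4 WT means, with C6 the nearest. Within a sample the large-subunit mean minus the small-subunit mean was -0.48 ± 0.05 in KO and -0.47 ± 0.08 in WT (SD, n = 4 each).

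WT sample C6 gave the highest WT value in 34 of the 51 genes, and C8 the lowest in 19. Among the KO samples A8 was highest in 18 genes and A4 lowest in 21. Without C6, every KO sample exceeded every WT sample in 36 of the 51 genes, where the share over all genes was then 18.4%, and 9 members passed the test, among them Rpl21, whose remaining WT values were all at the floor. Without KO sample A13 none passed.

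The signal of some cell type markers moved with the group as well. These are bulk samples, in which fewer cells of a type and less RNA per cell cannot be told apart. The sorted label was checked on erythroid markers, of which 8 of 12 listed were measured: Tfrc, which encodes CD71, read between 4025 and 14924 in WT and between 5396 and 12050 in KO, all 8 measured genes were above the floor on all 8 arrays, and Epb42 was at the floor on all. The mean log2 intensity of the 8 was 11.11 to 11.89 in KO and 11.86 to 12.35 in WT, and C6, the WT sample of highest ribosomal protein signal, was the lowest of the WT samples. The 8 genes did not share a direction. Alas2, the first enzyme of haem synthesis in erythroid cells, fell, at 12924 to 15744 in KO and 24886 to 34336 in WT (log2 fold change -1.05, adjusted p 0.0132 in limma). Slc4a1 at -0.63 (adjusted p 0.0712) and Fech at -3.05 (adjusted p 0.168) also lay lower in every KO sample without passing, whereas Klf1 at 0.32 (adjusted p 0.255) lay higher in every KO sample and Tfrc at 0.16 (adjusted p 0.841) overlapped.

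Some markers of other marrow cells differed too. B-cell markers, 14 of 20 measured, had means of 6.03 to 6.90 in KO and 6.94 to 8.22 in WT, and all 14 lay below 0 in log2 fold change, with Pax5, Vpreb2 and Dntt at the floor on every array. Megakaryocyte markers, 5 of 9 measured, had means of 6.55 to 6.69 in KO and 5.37 to 5.74 in WT, with Ppbp and Gp1bb at the floor on every array. That list mean rests largely on Tubb1, which rose (log2 fold change 3.53, adjusted p 0.0015 in limma). In 2 of the 5, Tubb1 and Pf4, every KO sample exceeded every WT sample, while Itga2b at 0.88, Gp9 at 0.14 and Vwf at -0.05 overlapped and did not pass. Both Tubb1 and Pf4 entered the test through the KO samples. No Tubb1 probe was above the floor on more than 4 arrays, and Pf4 read 20 to 20.2 in WT and 20.6 to 65.1 in KO. Floored WT values make the separation, fold and p of these genes hard to interpret. Progenitor markers, 4 of 8 measured, overlapped, with means of 4.82 to 6.11 in KO and 4.37 to 5.05 in WT, and Flt3 and Hlf at the floor on every array. None of the 4 passed or kept the groups apart. Kit had a log2 fold change of 1.80, Gata2 1.24, Cd34 0.08 and Myb -0.36, and Gata2 is also in the mast cell list.

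Neutrophil markers, 12 of 13 measured, overlapped between the groups, with means of 10.66 to 11.92 in KO and 10.02 to 11.69 in WT. None of the 12 passed, and 8 lay above 0 and 4 below. S100a9 at -1.07 (adjusted p 0.0882 in limma) was lower in every KO sample. Mast cell and basophil markers, 7 of 9 measured, had means of 6.94 to 7.79 in KO and 5.93 to 6.83 in WT, which did not overlap. Members passed in limma in both directions. Cpa3, above the floor on only 5 arrays, rose at 2.63 (adjusted p 0.0034) and Fcer1a at 1.66 (adjusted p 0.0145), while Prss34 fell at -1.97 (adjusted p 0.0316). The list means of macrophage markers, 8 of 11, and T and NK cell markers, 7 of 11, overlapped, at 7.08 against 6.95 and 5.37 against 5.45. The 7 T and NK genes did not share a direction, with 3 above 0 and 4 below. Cd2 fell, at 30.9 to 61.0 in KO and 107 to 206 in WT (log2 fold change -1.70, adjusted p 0.0132 in limma). Cd3g was at the floor in every KO sample and at 21.9 to 38.5 in WT. Nkg7 at 1.64 and Thy1 at 1.22 lay above 0 without passing. The part of these cell types in the ribosomal protein signal was not tested.

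**Figure D3:**
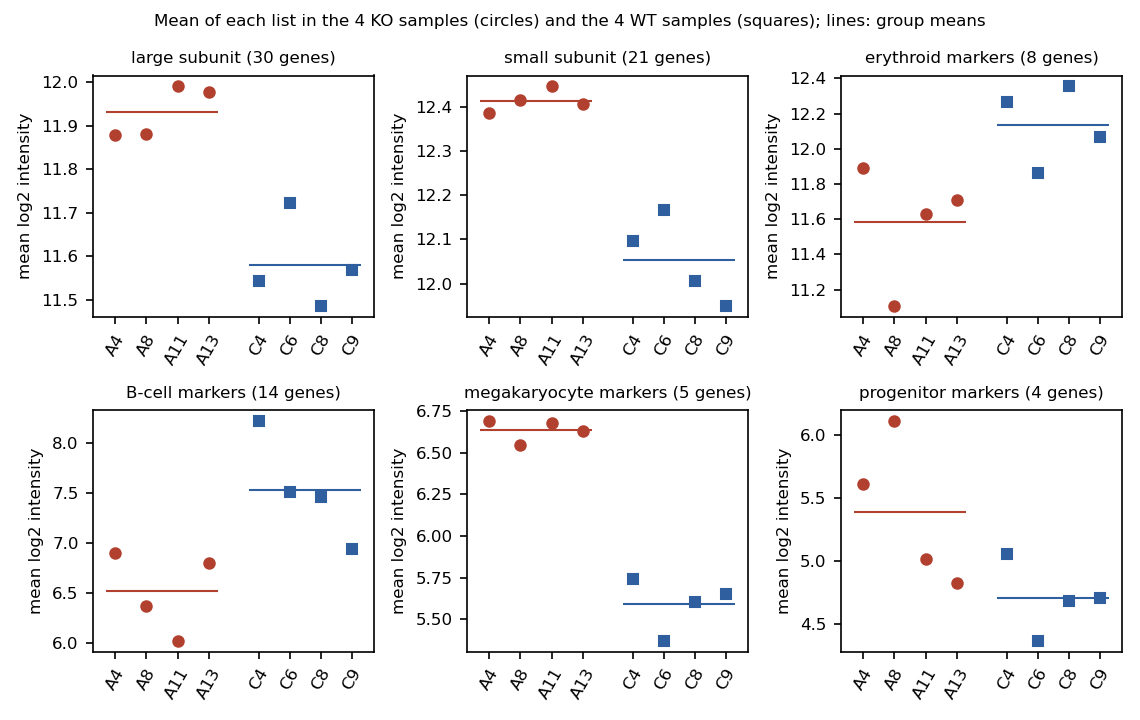
The y axis of each panel is the mean log2 intensity of 1 list of genes in each of the 8 samples, on its own scale, with KO samples as circles, WT samples as squares and lines at the group means. The means of both ribosomal subunits are higher in all 4 KO samples, as is that of the megakaryocyte markers, which rests largely on Tubb1, the B-cell mean is lower in all 4, and the erythroid means overlap through A4 and C6.

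Start-site sequence was read from the RefSeq promoter table of mouse assembly GRCm38.p6, which matched 43 of the 51 genes with 52 windows of 250 bases before to 50 bases after the start. The letters CCGGAAG, the core bound by ETS factors such as GABP, occurred on either strand in 20 of 43 genes, 46.5%, against 9.93% of 27025 genes in the table. The pyrimidine run TCTTTCC, as at TOP starts, occurred on the gene's own strand in 7, 16.3%, against 4.85%, and on either strand in 10, 23.3%, against 9.46%. The letters AAGATGG, the core for YY1, occurred on either strand in 7, 16.3%, against 7.28%, and TATAAA in 5, 11.6%, against 15.7%. The 27025 genes were not limited to those tested on these arrays, whereas every member was, so these shares compare unlike sets. A match of letters is not a bound site.

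The 20 genes with CCGGAAG on either strand had a median log2 fold change of 0.38 and the 23 without it 0.41, while on the gene's own strand alone the order turned, at 0.41 in 11 genes with it and 0.35 in 32 without. For TCTTTCC on the gene's own strand the medians were 0.49 in the 7 genes with it and 0.38 in 36 without. On either strand they were 0.41 in 10 genes with it and 0.40 in 33 without. The shorter run TCTTT on the gene's own strand turned the order, at 0.35 in 23 genes with it and 0.42 in 20 without. For AAGATGG the medians were 0.12 in 7 genes and 0.41 in 36 on either strand, and 0.41 in 3 and 0.38 in 40 on the gene's own. The 4 windows below, of 140 bases from 110 before to 30 after the start, 5′ to 3′ on the gene's strand, set 2 genes that rose beside 2 that did not pass. Capitals mark CCGGAAG on either strand (its reverse complement in Rplp2), the pyrimidine run TCTTTCC where it crosses the start, and TATAAA wherever it occurs. Rps2 lies at chr17:24719953-24720092, Rpl38 at chr11:114668470-114668609, Rps21 at chr2:180257269-180257408 and Rplp2 at chr7:141447541-141447680, all on the plus strand.
Rps2: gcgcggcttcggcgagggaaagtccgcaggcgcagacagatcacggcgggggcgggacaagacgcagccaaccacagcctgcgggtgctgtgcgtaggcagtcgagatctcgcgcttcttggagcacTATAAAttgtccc
Rpl38: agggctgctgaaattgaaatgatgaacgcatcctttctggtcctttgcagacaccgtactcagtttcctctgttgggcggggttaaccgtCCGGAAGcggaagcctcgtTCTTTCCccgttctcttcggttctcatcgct
Rps21: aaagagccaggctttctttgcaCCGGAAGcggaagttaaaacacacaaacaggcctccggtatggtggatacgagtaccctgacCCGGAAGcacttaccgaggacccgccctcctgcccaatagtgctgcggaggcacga
Rplp2: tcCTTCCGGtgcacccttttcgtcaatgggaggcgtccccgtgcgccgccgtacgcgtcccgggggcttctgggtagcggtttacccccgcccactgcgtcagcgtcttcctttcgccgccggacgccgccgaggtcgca

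Rpl38, which rose, holds CCGGAAG 20 bases before the start and TCTTTCC across it. Rps2, which rose most, holds neither, and its TATAAA lies 17 bases past the start. Rps21 read 8717, 9188, 9255 and 9413 in KO and 7832, 8930, 8333 and 8717 in WT and did not pass. It holds CCGGAAG 88 and 26 bases before the start shown. Counted from another Rps21 start in the promoter table, a window of the same length holds these letters once, 96 bases before. Rplp2, also not past the test, holds CCGGAAG on the other strand, 108 bases before the start. Windows of the same length for Rps12 and Rpl35, not shown, hold none of the marked letters.

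The P stalk of the large subunit, which recruits and activates the translation factors that hydrolyse GTP, is built from Rplp0 at its base and the acidic proteins Rplp1 and Rplp2, beside Rpl12. Rplp1 (probe ILMN_2964873) read 33820, 29842, 31618 and 31141 in KO and 17642, 19066, 19066 and 18598 in WT. The groups were far apart and each was tight, at 14.95 ± 0.07 against 14.18 ± 0.05 (log2 mean ± SD, n = 4). Its log2 fold change was 0.76 with an SE of 0.15, 1.70-fold, with an adjusted p of 0.0255 in limma, and the call was lost, at up to 0.0792, without any one of A4, A11, A13, C4 or C9.

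Rplp2, its partner in the stalk dimers, had no higher signal in KO. Its probe read 9359, 9413, 11564 and 10220 in KO and 11341, 9413, 12795 and 11564 in WT, with overlapping groups and a log2 fold change of -0.15 (SE 0.18, adjusted p 0.625). Rpl12, which docks at the stalk base, read 7506, 7832, 7706 and 6891 in KO and 5519, 6059, 4606 and 5119 in WT. All KO values of Rpl12 were above all WT values, but its log2 fold change of 0.50 did not pass in limma (adjusted p 0.115).

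Rplp0 was dim, at 95.3, 102, 135 and 118 in KO and 61.8, 105, 47.3 and 72.1 in WT. The groups overlapped through WT sample C6 alone. Its log2 fold change was 0.70 (SE 0.26, adjusted p 0.143), and limma gave an adjusted p of 0.0456 without C6.

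Rps2 lies where mRNA enters the small subunit and showed the largest log2 fold change of the 51 genes. The probe that represents it, ILMN_2717549, read 27793, 29276, 35030 and 35030 in KO and 13531, 17130, 15352 and 15896 in WT. The lowest KO value stood well above the highest WT value, at 14.95 ± 0.17 against 13.91 ± 0.14 in log2 intensity. The log2 fold change was 1.04 (SE 0.18), 2.05-fold, with an adjusted p of 0.0126 in limma, and without A13 the adjusted p was 0.0517.

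A second Rps2 probe, ILMN_2946616, read 13531, 3415, 13043 and 12299 in KO and 7191, 10288, 6450 and 9188 in WT. Here 3 of the 4 KO samples were above every WT sample and A8 was below all of them. The log2 fold change was 0.19 (SE 0.43, adjusted p 0.81) with all samples and 0.67 (adjusted p 0.110) without A8, neither of which passed in limma.

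The other genes of the mRNA path through the small subunit spread widely. Rps3, at the mRNA entry with Rps2, had log2 fold changes of 0.53 (adjusted p 0.0954) and 0.45 (adjusted p 0.285) at its 2 probes. Rps26, at the mRNA exit, read 9255, 10949, 6948 and 8042 in KO and 6730, 7609, 6059 and 5790 in WT, overlapping through A11, with a log2 fold change of 0.41 (adjusted p 0.235). Rps14, also on the exit side, had a log2 fold change of 0.04 (adjusted p 0.888) with mingled groups, at 11564 to 15048 in KO and 11791 to 14248 in WT.

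Rpsa, which sits at the exit and is also known as a laminin receptor, was near the floor. It read 22.8, 20, 28.6 and 20 in KO and 50.6, 20, 28.6 and 30.3 in WT, so that only 2 KO and 3 WT samples rose above 20. Its log2 fold change of -0.44 (SE 0.29, adjusted p 0.37), the lowest of the 51 genes, rests on values that the floor truncates.

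Rpl10a forms the L1 stalk, through which spent tRNA leaves the ribosome. It read 8985, 9626, 10335 and 10576 in KO and 5698, 6708, 6139 and 5939 in WT. The groups did not overlap, at 13.27 ± 0.11 against 12.58 ± 0.10. The log2 fold change was 0.69 (SE 0.16), 1.61-fold, with an adjusted p of 0.0423 in limma, which held without C6 at 0.0367 and was lost without any one of the other samples, at up to 0.123.

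Rpl38 is known from a mouse mutant with skeletal patterning defects in which translation of Hox mRNAs is reduced. Its brighter probe read 19745, 24536, 22593 and 22593 in KO and 14531, 13425, 13696 and 14679 in WT. Every KO sample exceeded every WT sample, with a log2 fold change of 0.66 (SE 0.16), 1.58-fold, and an adjusted p of 0.0468 in limma, and the call was lost whichever sample was left out, at 0.0566 to 0.125. Its dimmer probe, at 224 to 316 in KO and 142 to 232 in WT, had the same log2 fold change of 0.66 with a larger SE of 0.21 and an adjusted p of 0.102.

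A further 3 genes had a probe past the test that was not their brightest. Rpl27a, at probe ILMN_1227653, read 4280, 3518, 3058 and 4102 in KO and 1975, 1916, 1658 and 1736 in WT. The groups did not overlap, the log2 fold change was 1.03 (SE 0.18), 2.04-fold, and the adjusted p was 0.0147 in limma, or 0.0575 without A13 and 0.0518 without C9. The brightest Rpl27a probe read 10887 to 14531 in KO and 10016 to 11436 in WT, which overlap, and had a log2 fold change of 0.25 (adjusted p 0.403), while the dimmest of its 3 probes had 0.40 (adjusted p 0.204).

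Rpl29, a surface protein of the large subunit, rose at probe ILMN_2730005, which read 872, 614, 964 and 827 in KO and 422, 547, 356 and 466 in WT. The lowest KO value, from A8, stood just above the highest WT value, from C6. Its log2 fold change was 0.87 (SE 0.21, adjusted p 0.0495 in limma), and it passed without A8 (0.0307) or C6 (0.0354) and was lost without any one of the others, at up to 0.126. Its brighter probe, at 3961 to 5083 in KO and 2223 to 3465 in WT, also kept the groups apart, with a log2 fold change of 0.70 (adjusted p 0.0695, and 0.0392 without C6).

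Rps12, a protein of the small-subunit beak, rose at probe ILMN_2542938, which read 20947, 28570, 30820 and 30186 in KO and 16263, 16470, 16625 and 15048 in WT. The groups did not overlap, although A4 lay well below the other KO samples. The log2 fold change was 0.76 (SE 0.18, adjusted p 0.0467 in limma), passing without A4 at 0.0393 and lost without any one of the others, at up to 0.130. Its brightest probe read 25861 to 27793 in KO and 16263 to 19745 in WT, with a log2 fold change of 0.60 (adjusted p 0.0612, and 0.0452 without C6).

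**Figure D4:**
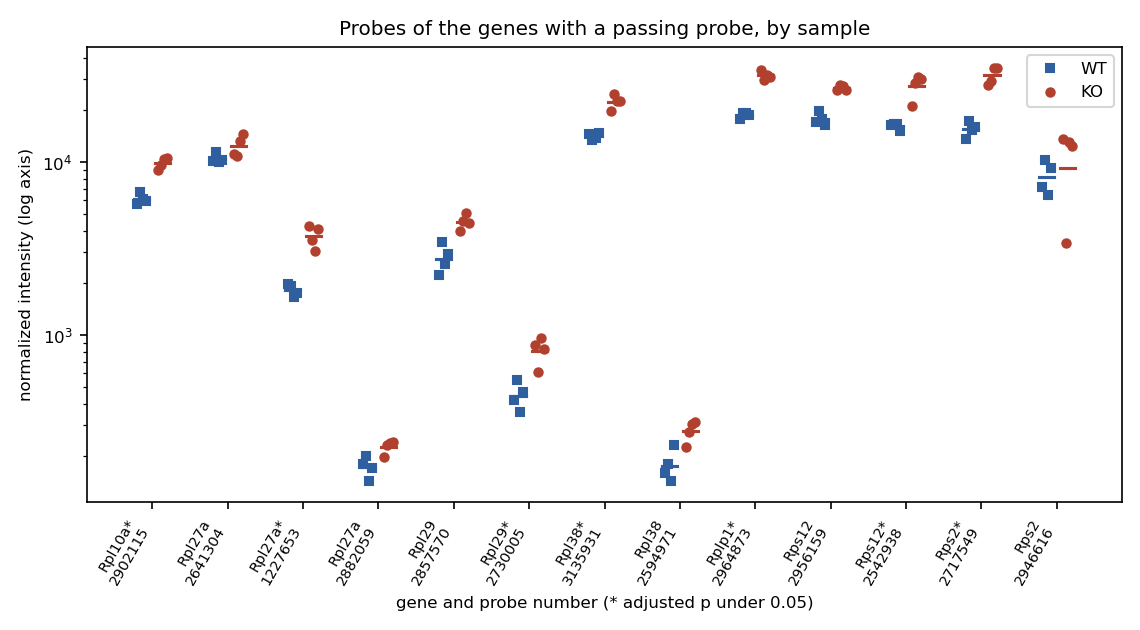
The y axis is the normalized intensity on a log axis of each tested probe of the 7 genes with a passing probe, in 4 KO samples (circles) and 4 WT samples (squares), with short lines at the group means of log2 intensity. An asterisk marks the 7 probes past the test, all with KO above WT in every sample, and the single low KO point of the second Rps2 probe is A8 at 3415.

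Several members with log2 fold changes nearly as large did not pass. Rpl13a, whose protein in human myeloid cells is known to leave the ribosome and silence inflammatory mRNAs, read 800, 1206, 967 and 1068 in KO and 629, 726, 497 and 581 in WT. The groups did not overlap and the log2 fold change was 0.73 (SE 0.20), with an adjusted p of 0.069 in limma, or 0.0493 without C6. Rpl21 had a log2 fold change of 0.65 (adjusted p 0.076) at a probe of 33.8 to 34.8 in KO, where only 1 WT sample, C6 at 29.1, was above the floor. The probe entered the test through the KO samples, and the floored WT values make its fold and p hard to interpret.

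Rps27l, a paralogue of Rps27 known in humans as a target of p53, read 3678, 4160, 3728 and 3540 in KO and 1998, 3011, 2098 and 2362 in WT. All KO samples were above all WT samples, and the log2 fold change was 0.69 (SE 0.19) with an adjusted p of 0.0656 in limma, or 0.0289 without C6. Rps27 itself was not analysed here. Rps4x, the X-linked form of its protein, had a log2 fold change of 0.34 (adjusted p 0.262), at 11683 to 13696 in KO and 9062 to 12149 in WT.

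The rim of the exit tunnel, where the new chain emerges and targeting factors dock, was measured through 5 of 7 listed genes. All 5 were on the KO side of 0, at a median of 0.46, and none passed. In 4 of them every KO sample exceeded every WT sample, which held for 11.3% of all tested genes and 24.3% of the bright ones. It also held for 51.0% of all 51 members and 54.8% of the 42 bright members, so it is not particular to the tunnel rim. Rpl31 read 10335, 10288, 8630 and 8138 in KO and 5790, 6139, 5820 and 6011 in WT, with a log2 fold change of 0.65 (SE 0.17, adjusted p 0.0572). Rpl35 had 0.46 (adjusted p 0.12), Rpl26 had 0.49 (adjusted p 0.105) and Rpl19 had 0.27 (adjusted p 0.337).

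Rpl39, the small protein that lines the tunnel, was the exception among them. It read 11791, 13425, 13425 and 12370 in KO and 13262, 10652, 14531 and 12299 in WT, with mingled groups and a log2 fold change of 0.01 (SE 0.17, adjusted p 0.966). Rpl41, the shortest ribosomal protein, likewise read 26148 to 29842 in KO and 25407 to 28960 in WT, with a log2 fold change of 0.02 (adjusted p 0.961).

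Of 20 listed genes mutated in human Diamond-Blackfan anaemia, 11 were measured. Their median log2 fold change was 0.41, as over all 51 members, 10 lay above 0 and none passed in limma. In 7 every KO sample exceeded every WT sample, against the same 11.3% of all and 24.3% of bright genes. Over all 51 members that share was 51.0%, so the separation is not particular to the disease genes. Rps19, the gene most often mutated in that disease, read 10220, 10652, 11004 and 10430 in KO and 7017, 8372, 6774 and 6891 in WT. The groups were apart, at 13.37 ± 0.05 against 12.82 ± 0.14, with C6 the highest WT sample, and the log2 fold change was 0.55 (SE 0.16, adjusted p 0.0823).

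Rpl31, described above, had the largest log2 fold change of these 11 genes and Rps15a the smallest. Rps29 read 31928, 31928, 30484 and 31928 in KO and 19544, 22076, 22076 and 19992 in WT, with a log2 fold change of 0.60 (adjusted p 0.0589). Rps10 read 5727, 5820, 5870 and 5886 in KO and 4580, 4381, 4461 and 4216 in WT, which kept the groups apart at a log2 fold change of 0.40 (adjusted p 0.144). Rps15a was dim and scattered, at 63.8, 64.7, 54.3 and 48.7 in KO and 110, 64.9, 77.8 and 20 in WT, with a log2 fold change of -0.01 (SE 0.46, adjusted p 0.994).

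Besides Rpsa, Rps15a and Rplp2, only Rpl22, Rpl23 and Rpl7a had log2 fold changes below 0, and none of the 6 passed. Rpl22, which in mice is known for its need in developing T cells, read 103, 124, 65.2 and 74.2 in KO and 99.7, 95.7, 99 and 97.2 in WT, so that the KO samples lay on both sides of the WT samples (log2 fold change -0.14, adjusted p 0.726). Rpl7a read 553, 58.3, 1274 and 1092 in KO and 536, 854, 585 and 503 in WT, where A8 alone was below the WT range. Its log2 fold change was -0.40 (SE 0.85, adjusted p 0.797) with all samples and 0.60 (adjusted p 0.288) without A8.

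A8 stood apart from the other samples more widely. Its correlation with the arrays of its own group was 0.894 over the tested probes, where every other array had at least 0.934, and limma's array weights gave it 0.307. Its mean over the 51 ribosomal protein genes was nevertheless 12.10, against 12.09 to 12.18 in the other KO samples.

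In 14 genes with several tested probes, 32 in all, probes of a gene could differ in size and sign. In 11 genes every probe lay above 0, in 3 the probes fell on both sides of it, and in 2, Rpl29 and Rps12, every probe kept the groups apart. The spread between probes of a gene ran from 0.0017 on the log2 scale for Rpl38 to 1.28 for Rps24. Both ends of the Rps24 spread rest in part on values at the floor. Ribosomal protein genes have many processed pseudogenes of near-identical sequence, so which copy each probe reads is uncertain.

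Rpl23, an L14-family protein at the face between the subunits, shows the disagreement. Its brightest probe read 24886, 21430, 19311 and 18332 in KO and 26902, 23929, 23509 and 23509 in WT, with a log2 fold change of -0.23 (adjusted p 0.437). A dim probe, ILMN_1238227, read 153, 157, 159 and 166 in KO and 118, 105, 115 and 102 in WT, every KO sample above every WT sample, with 0.54 (adjusted p 0.08). The probes of Rps24 had log2 fold changes of 0.23, 0.89 and -0.39, and those of Rpl30 of 0.19 and -0.24, none past the test. The Rps24 probe at -0.39 was near the floor, at 20 to 24.1 in KO and 20 to 39.2 in WT. The Rps24 probe at 0.89 had 0.41 without C8, which was at the floor there.

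**Figure D5:**
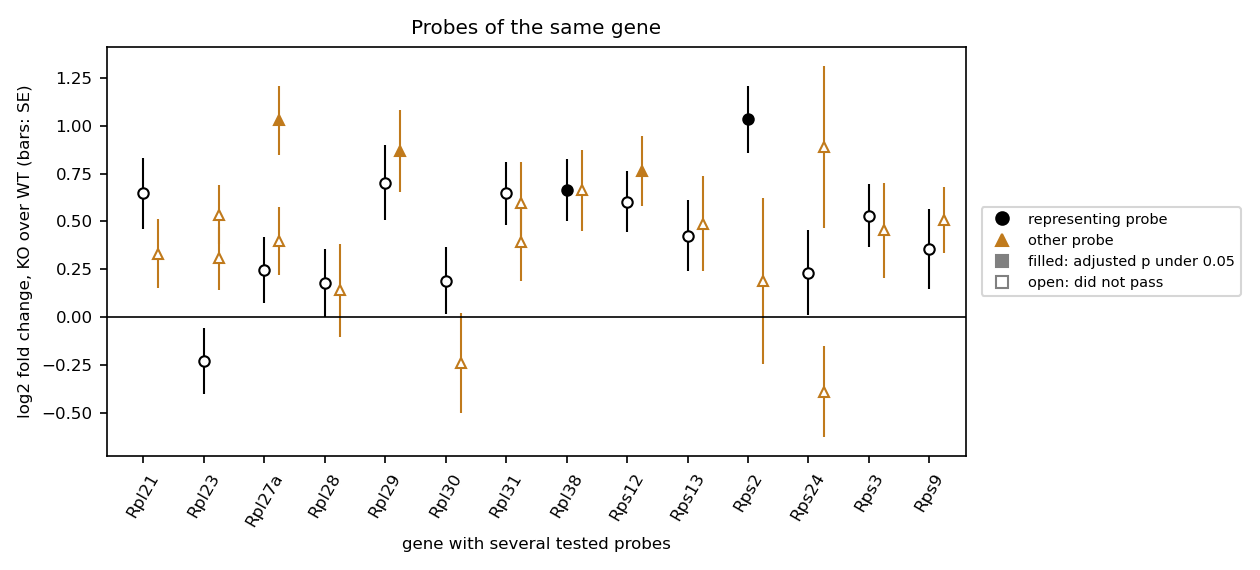
The y axis is the log2 fold change, KO over WT, with the SE of the limma fit as bars, for the 32 probes of the 14 genes with several tested probes. Circles are the representing probes, triangles the others and filled symbols those past the test, and probes of Rpl23, Rpl30 and Rps24 lie on both sides of 0.

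The other members had log2 fold changes between those given above. Rpl24, known in mice from the Belly spot and tail mutant, read 3864 to 4319 in KO and 3171 to 3441 in WT, apart at 0.32 (adjusted p 0.234). Rps6, the target of S6 kinase, read 6346 to 8742 in KO and 5638 to 7191 in WT, overlapping through A8, at 0.35 (adjusted p 0.269). Rps15, which reaches into the decoding site, had 0.51 (adjusted p 0.11), with 2571 to 2901 in KO and 1700 to 2250 in WT.

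A block of genes near the median kept the groups apart at small steps. Rps16 had 0.44 (adjusted p 0.134), Rpl37 0.45 (adjusted p 0.177), Rpl34 0.44 (adjusted p 0.165) and Rpl27 0.41 (adjusted p 0.177). Rpl4 at 0.59 (adjusted p 0.189) was dimmer, at 352 to 469 in KO and 173 to 352 in WT, with a wider SE of 0.26. Rps21 and Rps7 lay near the median of all genes, at 0.11 (adjusted p 0.674) and 0.12 (adjusted p 0.657).

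Of the 59 genes on the array, 8 had no probe above the floor on any of the 8 arrays and have no fold change, namely Rpl14, Rpl17, Rpl39l, Rpl3l, Rpl6, Rps20, Rps23 and Rps4l. Rpl3l and Rpl39l are paralogues known from muscle and testis. Rpl6, Rpl14, Rpl17, Rps20 and Rps23 are core proteins of every ribosome, so a probe at the floor says nothing here about the gene. Rpl5 and Rpl11, which with 5S ribosomal RNA form the particle that binds MDM2, were not analysed here.

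Other genes of the translation apparatus were read from the same fit. Of 17 listed genes with TOP mRNAs that are not ribosomal proteins, 13 were measured, with a median log2 fold change of 0.34 and 11 above 0. The elongation factor gene Eef1a1 rose, at 22076 to 27362 in KO and 13262 to 15352 in WT, with a log2 fold change of 0.72 (SE 0.17, adjusted p 0.0412 in limma), a call kept without C6 (0.0401) and lost without any one of the others, at up to 0.108. Its dimmer probe had 0.57 (adjusted p 0.0819). Pabpc1, the cytoplasmic poly(A)-binding protein, fell, at 2272 to 3655 in KO and 7364 to 11937 in WT, with a log2 fold change of -1.78 (SE 0.24, adjusted p 0.0045), which passed whichever sample was left out. The dimmer Pabpc1 probes had -1.78 (adjusted p 0.377) and -2.04 (adjusted p 0.147), with KO sample A8 at the floor on both. WT sample C8 was also low there, at 20 and 64.4, against 340 to 997 in the other WT samples.

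Of 3 measured genes for other ribosomal proteins, Rpl7l1 had 0.67, Rpl36al 0.39 and Rps3a1 -0.09, none past the test, although Rpl7l1 passed without C6 at 0.0304. A second Rpl7l1 probe, near the floor at 20 to 25.1 in KO and 20 to 45.2 in WT, lay on the other side of 0, at -0.55 (adjusted p 0.232). Dedicated chaperones and partners of single ribosomal proteins, 5 of 7 measured, had a median of 0.64, all above 0 and none past the test. The largest were Heatr3 at 0.81 (adjusted p 0.149), Ltv1 at 0.65 and Bccip at 0.64 (adjusted p 0.108, and 0.0449 without C6). Heatr3, at 36.3 to 70.8 in KO and 20 to 37.4 in WT, and Ltv1, at 30.3 to 52.7 in KO and 20 to 30.2 in WT, were near the floor. C8 was at the floor in both, which limits what their folds and the list median can show.

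Among genes that act on TOP mRNAs or on ribosomal protein promoters, 9 of 14 measured, the median was 0.07 and Tsc1 fell. Tsc1, an inhibitor of mTOR signalling, read 26.6 to 41.7 in KO and 129 to 176 in WT, with a log2 fold change of -2.13 (SE 0.20, adjusted p 0.0012), and passed whichever sample was left out. Its partner gene Tsc2 had, at its brightest probe, 0.57 (adjusted p 0.108, and 0.0410 without C6), and Eif4ebp1, which encodes a translation repressor under mTOR, had 0.83 (adjusted p 0.0655, and 0.0401 without C6).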

How the data were processed

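RNA of 8 sorted samples was measured on Illumina bead arrays. The table the authors deposited holds linear, normalized intensities of 45281 probes. Per the submitters' processing notes BeadStudio 3.1.3 was used, with settings not given in the sources used here. In it, no value lies below 20, and between 12143 and 12199 probes per array lie above it. Floored values understate changes of dim genes, and the number of arrays limits precision. In the deposited table of signals before normalization, 8 signal columns match no sample by name and were not used.

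Intensities were taken to log2, and the 12259 probes above 20 on 4 or more of the 8 arrays, whatever the group, were tested KO against WT with lmFit and eBayes in limma 3.58.1 (R 4.3.3), with Benjamini-Hochberg adjustment over all of them and a threshold of 0.05. The fit was tested on simulated data. The array table pairs 34885 probes with 1 gene, 18 with several and 10378 with none. A gene is represented by its tested probe of highest mean. All 59 ribosomal protein genes matched RefSeq by Entrez identifier. Values in each sample are given for genes with a passing probe, the 6 largest and 6 smallest log2 fold changes, and the stalk genes. They are also given for the extreme disease genes, Rps19 and the paralogue Rps27l, while the paralogue Rps4x is given by its ranges. Other genes were named after their values had been seen. The members and gene lists were chosen with earlier results of these data known. The alternatives were no filter, a filter on all 8 arrays, median centring, cyclic loess, an offset of 50, array weights, an intensity trend, robust moderation, the mean of a gene's probes, and each sample left out.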

Additional observations from a re-analysis of the deposited data

Results flagged for a closer look

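The KO and WT values of each of the 69 member probes, and the sample means of 5 lists, made 148 groups of 4 samples. In 8 of these groups the highest or lowest sample stood apart, its gap to the nearest other being a larger share of the group's range than Dixon's critical value allows. Chance alone gives about 1 in 20 such groups.

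WT sample C6 was the highest of its group in 4 of the 8. Rps19 in C6 read 8372, where the other WT samples read 6774 to 7017, and the brightest Rpl27a probe in C6 read 11436, where the others read 10016 to 10220. At the 2 probes of Rpl21, C6 read 29.1 and 20.8, where the other WT samples were at the floor of 20.

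The other samples that stood apart were spread over 4 genes. KO sample A8 read 3415 at the second Rps2 probe, where the other KO samples read 12299 to 13531. WT sample C4 read 26902 at the brightest Rpl23 probe, where the others read 23509 to 23929. WT sample C8 read 20, the floor, at a dim Rps24 probe, where the others read 71.8 to 79.5. KO sample A11 read 30484 for Rps29, where the others all read 31928, a small step that stands out only because the other 3 share a value.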

How the results depend on the processing

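No member fell in any fit, and the median log2 fold change of the members stayed at 0.319 (cyclic loess) or above, 0.24 to 0.34 over that of all genes. The count of member genes that rose, 4 of 51, depended on the setting. It was 7 without the filter and 7 with probes above the floor on all arrays, 2 with cyclic loess, 18 with an offset of 50, 12 with array weights and 18 with an intensity trend. The 7 member probes became 3 with cyclic loess, 23, 16 and 22 with the last 3, and 10 with the floor on all arrays. Over all probes the 301 higher and 381 lower became 74 and 78 without the filter and 836 and 702 with array weights, and 171 and 321 with the floor on all arrays. They became 238 and 439 with cyclic loess, 409 and 394 with the offset, and 442 and 449 with the trend. With single samples left out, member genes ran from 0 to 9, member probes from 0 to 11, the member median from 0.347 to 0.454, the large minus small difference from -0.052 to 0.056, all higher probes from 91 to 557 and all lower from 162 to 586, the lowest member counts being without A13 and the highest without C6. The no-overlap count of 26, repeated as an alternative chosen after seeing the data, ran from 26 to 36, while the share of all genes rose from 11.3% to between 12.4% and 18.4%. Leaving a sample out can only keep or raise this count and this share, so their lower ends were fixed in advance. The direction turned for Rps15a (0.0987 with array weights, -0.52 to 0.30 with samples left out), Rpl22 (-0.30 to 0.0065), Rpl7a (0.58 with array weights, -0.89 to 0.60) and Rps3a1 (0.18 with array weights, -0.35 to 0.25). It also turned for 3 genes near 0, Rpl39 (-0.0838 with cyclic loess, -0.0664 to 0.0829), Rpl41 (-0.0889, -0.0224 to 0.0439) and Rps14 (-0.0541, -0.0173 to 0.109). The cause was not tested, and neither normexp correction nor a slide block was run, since no column of signals before normalization or slide could be tied to a sample by name. The numbers 4 and 8 occur in the codes of both groups, without any label that they pair samples. Deviations from the group means correlated at 0.26 for A4 with C4 and 0.22 for A8 with C8. Between KO and WT samples of unlike numbers they correlated at -0.30 (A4 with C8) to 0.31 (A13 with C9), a range that holds both values. A replicate block on these numbers, chosen after seeing the data, uses those 4 samples only. With it, and equally in the same 4 samples unblocked, limma called 0 probes higher and 0 lower, 0 of them members, and the member median was 0.492 against 0.148 over all genes. At an unadjusted p under 0.05, 2 member genes were higher with the block and 7 without, of 580 and 643 genes in all, and 0 members were lower in either. Probes near the floor have values that limit what can be read from them.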
